A study of Rattus norvegicus with 12 samples.

Results

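The transcriptional response of a stratified rat epidermis to a single UVB dose was measured 24 h after irradiation, in tissue that had received no betaine. The comparison is between 6 of the 12 cultures of the series, 3 UVB-irradiated and 3 mock-irradiated control cultures, taken as the submitters labelled them. All 10937 genes detected on the arrays were tested. The other 6 cultures, described below, entered the gene filter, the normalization and the estimate of the spread. No measured value was used to choose the cultures. The tissue was grown from REK cells, an established line of rat epidermal keratinocytes that stratifies when it is raised to air, without feeder cells. Control cultures were mock-irradiated and received no betaine, and UVB cultures received 30 mJ/cm2 of UVB and no betaine. The other 6 cultures were grown for 11 days with 10 mM betaine, an osmolyte, and 3 of them (betaine + UVB) received the same UVB dose while 3 (betaine) were not irradiated. All cultures were 2 weeks old at collection and had been raised to the air-liquid interface on day 3. The epidermis was lifted off its support and 400 ng of total RNA from each culture was hybridized to an Illumina RatRef-12 array. All cultures come from 1 cell line, and nothing in the labels says whether the 3 cultures of a group were set up independently; the p-values therefore cover the spread among these cultures and no more.

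UVB is absorbed by DNA and links neighbouring pyrimidines, and these lesions stall RNA and DNA polymerases until nucleotide excision repair removes them. In irradiated skin, keratinocytes first stop the cell cycle, in part through p53, and release cytokines, and the basal layer later divides faster and thickens the epidermis. UVB also converts 7-dehydrocholesterol to the precursor of vitamin D, which keratinocytes can activate themselves. The array reads the level of each transcript in the whole epidermis at 1 time, so a change can come from a different number of cells that express a gene or from a different amount of RNA in each of them, and these cannot be told apart.

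Each level below is a background-corrected, quantile-normalized log2 intensity, and each change is a difference of such levels, UVB minus control, where a difference of 1 is a doubling on this scale. The fit is limma across all 12 arrays, and a gene is called at a Benjamini-Hochberg adjusted p under 0.05 over all genes tested. Each ± after a change is the standard error of the fit with 3 cultures per group, and a value in parentheses after the name of a gene that was not called is its change. Levels of different genes are not compared, since probes differ in brightness. Between 10369 and 10768 of the 22523 probes were detected per array. Control A stood apart from the other controls, lying at least 2-fold from control B in 134 genes and from control C in 79, while controls B and C were that far apart in 5. UVB A and UVB B were at least 2-fold apart in 2 genes. UVB C differed at least 2-fold from UVB A in 35 genes and from UVB B in 36, and it was the UVB culture that stood apart most often among called genes, lying at least 0.5 log2 above both others in 9 and below both in 10. Of 10 keratinocyte markers, 8 were measured, and 1 of these 8, Krt15, fell after UVB while 7 were not called. The basal keratin Krt14 (14.91, 14.97 and 14.87 in control A, B and C and 14.84, 14.85 and 14.89 in UVB A, B and C) and the suprabasal keratin Krt10 (14.85, 14.92 and 14.95 and 14.98, 14.96 and 14.91) were near the top of the scale in both groups. Of the markers of other cell types, the measured ones were 2 of 7 for melanocytes, 1 of 8 for fibroblasts, 0 of 5 for endothelium and 3 of 8 for leukocytes, and none of these 6 was called. The macrophage marker Cd68 ranged from 6.52 to 6.76 in control and from 6.66 to 6.86 in UVB cultures.

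UVB changed 542 of 10937 genes, which is 4.96% of those tested. Of these, 325 genes (2.97%) were higher and 217 (1.98%) were lower, and these shares are the background against which the counts below are read. The median change was 0.68 among the genes that rose and −0.55 among those that fell, and −0.017 over all genes. With arrays scaled by their medians in place of quantiles, which moved the median of all genes to −0.11, 230 genes were higher and 486 lower. The 3 UVB arrays lay wholly above or wholly below the 3 control arrays in 2504 genes, or 22.9%. Without 1 of the 6 control and UVB arrays the count lay between 315 and 390, and with these 6 arrays alone in the fit it was 365. Of 720 measured genes on lists of epidermal, stress and cell cycle pathways, 130 rose and 23 fell. The lists and their members were chosen with earlier results of these data known. Their shares below, set against all genes, therefore describe the lists and do not test them.

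**Figure D1:**
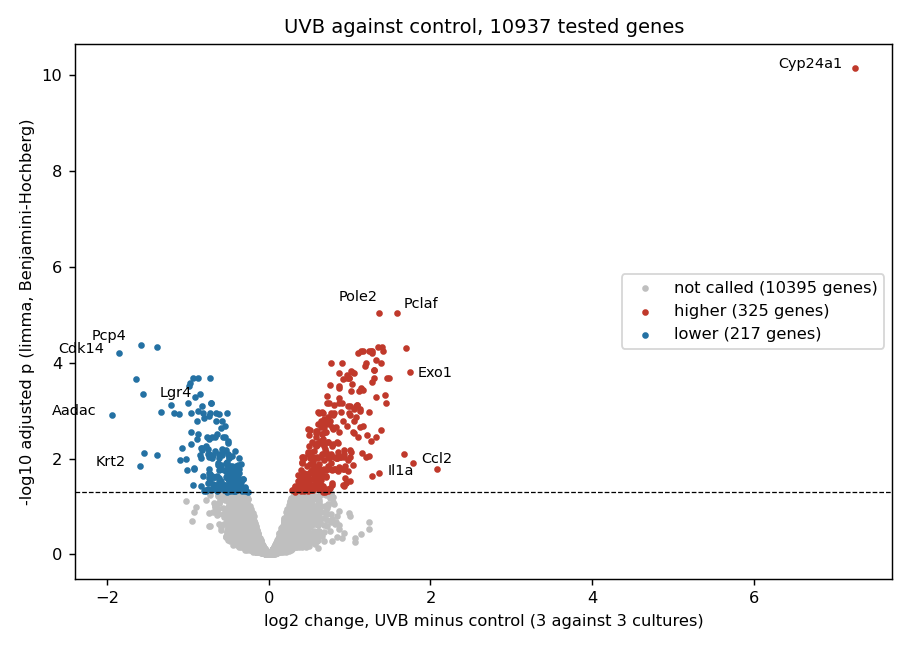
Change after UVB (horizontal axis, log2, UVB minus control, 3 cultures each) against −log10 of the limma adjusted p (vertical axis) for 10937 genes, with the dashed line at an adjusted p of 0.05. Red points are the 325 genes that were higher and blue points the 217 that were lower; Cyp24a1 lies alone at the upper right and the replication and recombination genes Pclaf, Pole2 and Exo1 lie near the top of the other rises.

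Cyp24a1, the 24-hydroxylase that inactivates vitamin D and the best known target of the vitamin D receptor, moved far more than any other gene. Its levels were 5.76, 6.03 and 5.85 in control A, B and C and 13.29, 13.23 and 12.90 in UVB A, B and C. The control arrays lay near the dim end of the scale and the UVB arrays near its bright end, and neither group spread over more than 0.4 log2. The change was 7.26 ± 0.15 (adjusted p = 7.19e-11). With the authors' processed values it was 5.13 (limma adjusted p = 5.0e-09), so the size of the rise depended on the processing. No other measured gene of the vitamin D list was called, so the list stood at 1 of 9 higher. Of the 13 listed genes 4 were not measured. Cyp27b1 had no probe of this name, and probes of Cyp2r1, Cyp27a1 and Calb1 were not kept, so the enzymes that activate vitamin D were not read. Vdr, the receptor itself, read 7.40, 7.54 and 7.38 in control and 7.27, 7.39 and 7.73 in UVB cultures, with overlapping arrays and a change of 0.021 ± 0.13. Its partners Rxra and Rxrb changed by −0.067 and −0.24, neither called. Dhcr7, which consumes 7-dehydrocholesterol, changed by −0.13, and the calcium channel Trpv6, a receptor target in the intestine, by 0.071. S100g, a calcium-binding protein that the receptor controls in the intestine, changed by −0.68 ± 0.20 (adjusted p = 0.0832).

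**Figure D2:**
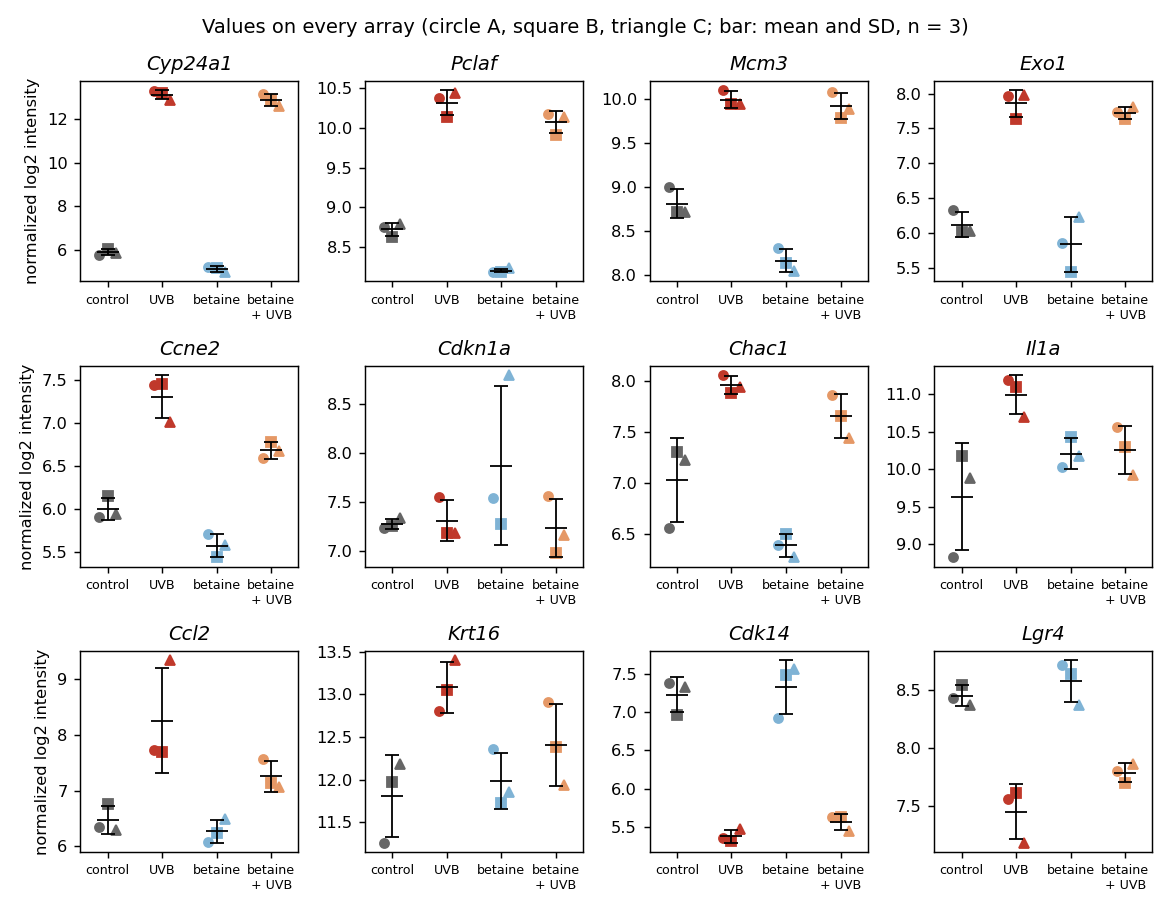
Normalized log2 intensity of 12 genes (vertical axis, a separate scale in each panel) on every array of the 4 groups, with circles, squares and triangles for cultures A, B and C and bars for the mean and SD of 3 cultures. Cyp24a1, Pclaf, Mcm3, Exo1, Ccne2 and Chac1 were higher in all 3 UVB cultures than in all 3 controls, Cdk14 and Lgr4 were lower in all 3, Cdkn1a overlapped, and control A was the lowest control for Il1a, Krt16 and Chac1.

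Genes that license replication origins rose together. Licensing loads the MCM helicase on DNA in G1: the origin recognition complex binds the origin, Cdc6 and Cdt1 bring the 6 subunits Mcm2 to Mcm7, and geminin (Gmnn) restrains Cdt1 after S phase begins. Of 14 measured members 11 rose and 0 fell (78.6%, against 2.97% of all genes), and the median change was 0.81. The promoters of 3 MCM subunits and of the PCNA partner Pclaf follow, from RefSeq (GRCr8). Each runs from 250 bases before to 50 after the gene start, with E2F-type words in capitals. They are examples that hold a word, and Pclaf belongs to the polymerase and clamp list. Mcm3 lies at chr9:30733697-30733996, minus strand, Mcm5 at chr19:13488563-13488862, plus strand, Mcm6 at chr13:42404303-42404602, minus strand and Pclaf at chr8:75315467-75315766, plus strand.
Mcm3: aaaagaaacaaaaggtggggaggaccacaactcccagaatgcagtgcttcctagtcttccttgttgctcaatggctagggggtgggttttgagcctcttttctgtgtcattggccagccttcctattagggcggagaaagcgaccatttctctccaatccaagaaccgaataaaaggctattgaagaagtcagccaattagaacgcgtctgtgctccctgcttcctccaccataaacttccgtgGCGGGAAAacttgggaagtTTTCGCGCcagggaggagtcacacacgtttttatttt
Mcm5: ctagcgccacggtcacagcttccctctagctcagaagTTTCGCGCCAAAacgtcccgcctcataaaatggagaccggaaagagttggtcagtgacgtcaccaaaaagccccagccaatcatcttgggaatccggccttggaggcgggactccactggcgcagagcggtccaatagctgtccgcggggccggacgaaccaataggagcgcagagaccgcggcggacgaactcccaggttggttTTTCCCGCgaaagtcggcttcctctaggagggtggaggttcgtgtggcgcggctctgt
Mcm6: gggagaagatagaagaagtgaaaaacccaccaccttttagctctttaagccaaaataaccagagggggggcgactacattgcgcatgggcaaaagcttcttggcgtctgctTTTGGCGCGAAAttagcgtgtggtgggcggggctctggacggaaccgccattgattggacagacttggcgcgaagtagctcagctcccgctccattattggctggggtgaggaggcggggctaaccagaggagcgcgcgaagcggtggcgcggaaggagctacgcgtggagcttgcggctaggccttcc
Pclaf: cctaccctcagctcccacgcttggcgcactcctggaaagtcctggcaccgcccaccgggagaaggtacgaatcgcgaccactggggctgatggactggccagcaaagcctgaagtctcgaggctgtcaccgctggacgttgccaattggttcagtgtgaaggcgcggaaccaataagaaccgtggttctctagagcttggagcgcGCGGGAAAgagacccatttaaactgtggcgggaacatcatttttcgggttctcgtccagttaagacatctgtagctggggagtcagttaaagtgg

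E2F factors release the genes of S phase when the retinoblastoma protein is phosphorylated. The words searched were TTTGGCGC, TTTCGCGC, TTTCCCGC and TTTGCCGC on both strands, with overlapping matches counted separately, so the capitals of Mcm5 hold 3 words and those of Mcm6 hold 2 overlapping words. Of 11 measured licensing genes with a promoter in the table, 9 (81.8%) held a word, against 2.14% of all 33469 RefSeq promoters and 4.03% of the 7677 promoters of tested genes. The share was lower among the firing and fork genes, at 3 of 8 (37.5%), and the polymerase and clamp genes, at 9 of 24 (37.5%). Among genes called after UVB, a word was present in 35 of 224 promoters (15.6%) of those that rose and in 2 of 160 (1.25%) of those that fell. Orc5 and Mcmbp each held 1 word and were not called, while Orc6 held none and rose. A match describes the letters of the promoter and is not a measured binding site. Whether E2F factors took part in these rises was not tested.

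Cdc6, the loader, read 7.58, 7.39 and 7.38 in control A, B and C and 8.96, 8.80 and 8.83 in UVB A, B and C. Mcm3 read 9.0, 8.71 and 8.72 in control and 10.10, 9.94 and 9.94 in UVB cultures. In both genes every UVB culture lay well above every control. Cdc6 rose by 1.41 ± 0.12 (adjusted p = 5.64e-05) and Mcm3 by 1.19 ± 0.11 (adjusted p = 1.15e-04). All 6 helicase subunits rose, the others being Mcm2 by 0.72, Mcm4 by 0.68, Mcm5 by 0.98, Mcm6 by 1.0 and Mcm7 by 0.51, with the smallest change in Mcm7 and the largest in Mcm3. A second probe of Mcm5 changed by 1.0 ± 0.20. The other risers were Orc1 by 1.48, Cdt1 by 1.33, Gmnn by 0.87 and Orc6 by 0.75. Not all origin recognition subunits were called: the changes of Orc2 and Orc5 were 0.017 ± 0.10 and −0.034 ± 0.082, and that of the helicase-binding protein Mcmbp was 0.31 (adjusted p = 0.132). Mcm5 was no longer called without control B or UVB B (adjusted p up to 0.0513) and Mcm7 without control B (adjusted p = 0.0578).

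Factors that turn the loaded helicase into a moving fork followed. Of 11 measured members 9 rose and 0 fell (81.8%), with a median change of 0.66. All 4 GINS subunits, which complete the active helicase, rose: Gins1 by 1.30, Gins2 by 1.08, Gins3 by 0.66 and Gins4 by 0.65. Dscc1, which helps load the PCNA clamp, read 8.33, 7.94 and 8.20 in control and 9.54, 9.43 and 9.57 in UVB cultures, a gap of more than 1 log2 between the nearest arrays. It rose by 1.35 ± 0.11 (adjusted p = 4.74e-05). Mcm10, which activates the helicase, rose by 1.12 and the fork protection factor Timeless by 0.92 ± 0.19. Donson, a fork factor, rose by 0.63 and Dbf4, the regulatory subunit of the kinase that fires origins, by 0.49 (adjusted p = 0.0482). Wdhd1, which ties the helicase to the primase, changed by 0.63 ± 0.17 (adjusted p = 0.0574), and the helicase Recql4 by 0.18. Dbf4 was no longer called without any 1 of the 6 arrays (adjusted p up to 0.167) and Timeless without control B or C or UVB A (adjusted p up to 0.0683).

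At the fork itself 16 of 25 measured genes rose and 0 fell (64.0%), with a median change of 0.61. Pole2, the second subunit of the leading-strand polymerase, read 8.91, 8.63 and 8.75 in control and 10.15, 10.09 and 10.16 in UVB cultures. Pclaf, which binds the PCNA clamp, read 8.76, 8.63 and 8.79 in control and 10.38, 10.14 and 10.43 in UVB cultures. The arrays of each group lay within 0.4 log2 of each other in both genes, and the groups were more than 1 log2 apart. The changes were 1.37 ± 0.084 for Pole2 and 1.59 ± 0.10 for Pclaf (adjusted p = 9.08e-06 for both). Calls were divided within each polymerase complex. In polymerase epsilon the catalytic Pole rose by 1.28, while the histone-fold subunits Pole3 and Pole4 changed by 0.15 and 0.070 and were not called. In polymerase delta the subunits that rose were Pold1 by 0.83 and Pold2 by 0.56, while Pold3 changed by 0.32 and the smallest subunit Pold4 by −0.30 (adjusted p = 0.0767). In the primase complex the risers were Pola2 by 0.90, Prim1 by 0.58 and Prim2 by 0.40, and the catalytic Pola1 changed by 0.60 ± 0.17 (adjusted p = 0.0663). The clamp loader subunits that rose were Rfc2 by 0.86, Rfc3 by 0.74, Rfc4 by 0.66 and Rfc5 by 0.65, and the large subunit Rfc1 changed by −0.0031 ± 0.11. The clamp Pcna rose by 0.61, and the enzymes that finish the lagging strand, Fen1 and Lig1, by 0.92 and 0.72. Of the single-strand binding proteins, Rpa2 rose by 0.68 and Rpa3 changed by 0.24. Prim2 was no longer called without control A or C or UVB A, B or C (adjusted p up to 0.161) and Rfc2 without control B or UVB B or C (adjusted p up to 0.0617). Pold2 was not called with median scaling (adjusted p = 0.0542).

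**Figure D3:**
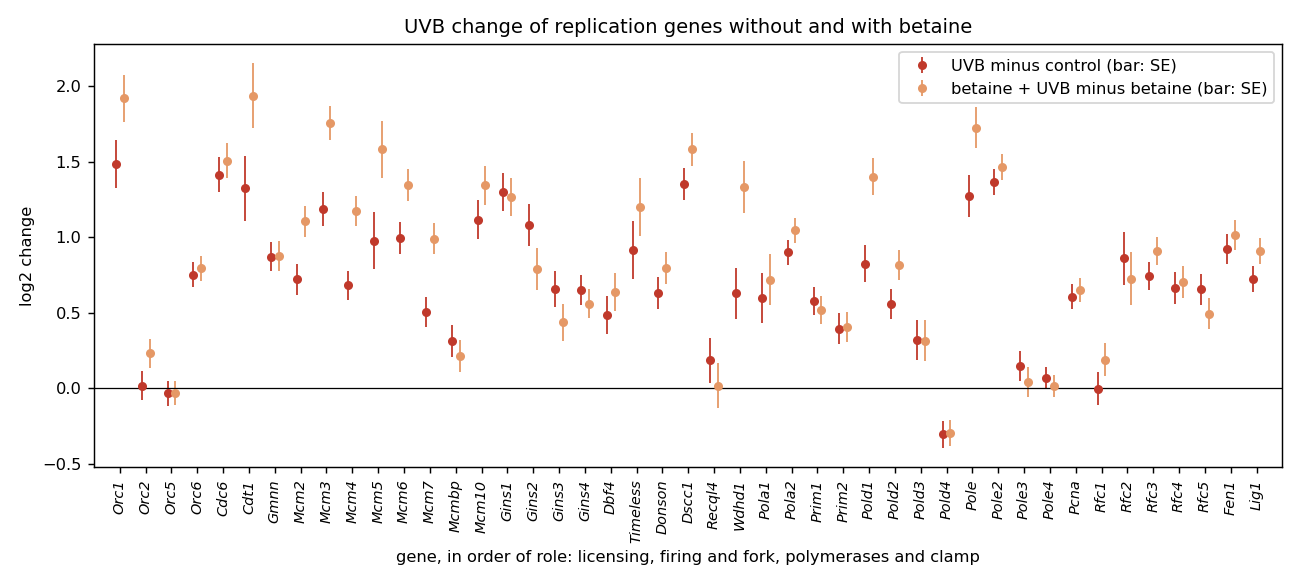
Change after UVB of replication genes (points, log2, with standard errors) in cultures without betaine (red, UVB minus control) and with betaine (orange, betaine + UVB minus betaine), ordered by role. The MCM and GINS subunits, Pole and Pole2 lie above 0 in both, and Orc5, Pold4, Pole3, Pole4 and Rfc1 lie near or below 0 in cultures without betaine.

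Chromatin assembly and nucleotide supply moved in part. Of 12 genes that package new DNA or copy its methylation, 5 rose and 0 fell. Asf1b, the histone chaperone of dividing cells, read 8.16, 7.96 and 8.34 in control and 9.50, 9.44 and 9.73 in UVB cultures, with no overlap, and rose by 1.40 ± 0.11, while its relative Asf1a changed by 0.18 ± 0.074. The others were Chaf1b by 1.03, Ezh2 by 0.50 and Suv39h1 by 0.52, of which Chaf1b delivers histones to the fork and Ezh2 and Suv39h1 methylate them. Uhrf1, which guides the maintenance methylase, was not detected in any control and was at least 1.48-fold higher after UVB (adjusted p = 0.00658). The methylase Dnmt1 changed by 0.47 (adjusted p = 0.051) and Chaf1a by 0.41 (adjusted p = 0.0541). Suv39h1 was no longer called without control B or C or UVB A, B or C (adjusted p up to 0.114).

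Of 20 genes of nucleotide supply 5 rose and 0 fell, and the risers included steps that make or clean the deoxynucleotide pool. Rrm2, the S-phase subunit of ribonucleotide reductase, read 11.10, 11.22 and 11.39 in control and 12.49, 12.44 and 12.21 in UVB cultures, without overlap, and rose by 1.14 ± 0.10 (adjusted p = 5.64e-05). Dctpp1, which removes modified dCTP, rose by 1.27 ± 0.11. The purine enzymes Impdh1 and Ppat rose by 0.36 and 0.44. Rrm1 and Tyms, the partner subunit and thymidylate synthase, changed by 0.40 and 0.56 (adjusted p = 0.135 and 0.106). Of 4 genes that break pyrimidines down, Upb1, beta-ureidopropionase, rose by 1.45 ± 0.18, from 7.04, 6.84 and 7.55 in control to 8.34, 8.66 and 8.80 in UVB cultures, while Upp1 (0.21), Tymp (−0.11) and Cda (0.34) were not called. Impdh1 was no longer called without control A or B or UVB A, B or C (adjusted p up to 0.125) and Ppat without control A, B or C or UVB A or C (adjusted p up to 0.116).

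Repair pathways gave different counts. Homologous recombination and the Fanconi pathway, which mend broken and stalled forks, had 10 of 25 measured members higher and 0 lower (40.0%), with a median change of 0.50. Nucleotide excision repair, which removes the lesions that UVB makes, had 0 of 17 higher and 0 lower, with a median of 0.011, and 3 of the 17 reached an unadjusted p under 0.05. A count of 0 among 17 lies near the 4.96% of all genes called. The strongest riser, Exo1, a nuclease that resects broken ends, read 6.32, 6.01 and 6.02 in control and 7.96, 7.64 and 7.98 in UVB cultures. The groups lay more than 1 log2 apart, and Exo1 rose by 1.74 ± 0.17 (adjusted p = 1.54e-04). Rad54l and Rad54b, motor proteins of recombination, rose by 1.39 and 0.87, and Ube2t, the ubiquitin-conjugating enzyme of the Fanconi pathway, by 1.07. Bard1 and Palb2, partners of the BRCA proteins, rose by 0.84 and 0.74, the helicase Blm by 0.65 and the core complex member Fanca by 0.79. Of these, Rad54b and Fanca were detected in 1 control, and Bard1 and Palb2 in 2. The helicase Brip1 was detected in no control and was at least 1.35-fold higher (adjusted p = 0.0324). The core members Fancb and Fancc changed by 0.56 and −0.17, neither called. Brip1 was no longer called without control A or B or UVB A or B (adjusted p up to 0.124) and Fanca without control A or B or UVB A or B (adjusted p up to 0.12).

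Within excision repair, the damage sensors Xpc and Ddb2 changed by −0.33 ± 0.12 and 0.052 ± 0.087, the scaffold Xpa by −0.27 ± 0.081 and Ddb1 by −0.13 ± 0.12. None was called (adjusted p = 0.152, 0.823, 0.091 and 0.641). Xpc read 8.32, 8.0 and 7.87 in control and 7.80, 7.78 and 7.62 in UVB cultures, so its arrays did not overlap, as in 22.9% of all genes. Ddb2 read 7.32, 7.12 and 7.34 in control and 7.25, 7.36 and 7.31 in UVB cultures, and its groups overlapped. In translesion synthesis 2 of 9 rose: Rad18, which ubiquitinates PCNA at stalled forks, by 0.67 and Hltf by 0.43, although a second probe of Hltf changed by −0.20 ± 0.25. Polh, the polymerase that copies past UV lesions, changed by 0.28 ± 0.13 (adjusted p = 0.293). In base excision repair 1 of 13 rose (7.69%, against 2.97% of all genes), the uracil glycosylase Ung by 0.97 ± 0.10 (adjusted p = 2.09e-04). Hltf was no longer called without any 1 of the 6 arrays (adjusted p up to 0.114).

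The checkpoint and p53 lists differed in their counts. Of 17 checkpoint genes 3 rose (17.6%, against 2.97% of all genes) and 0 fell. The risers were Pkmyt1, the kinase that holds Cdk1 inactive, by 1.09 ± 0.14, the phosphatase Cdc25a by 0.73 and the clamp subunit Rad1 by 0.41. Rad1 was not called with median scaling (adjusted p = 0.105) or with the control and UVB arrays alone (adjusted p = 0.058). The kinases Atm, Chek1 and Chek2 changed by −0.30, −0.11 and 0.10, none of them called. Of 16 p53 targets 0 rose and 0 fell, with a median change of 0.033, and 2 reached an unadjusted p under 0.05. With 4.96% of all genes called, a count of 0 among 16 lies near the share of all genes. Cdkn1a, the p21 inhibitor of cyclin-dependent kinases, read 7.23, 7.25 and 7.33 in control and 7.55, 7.19 and 7.19 in UVB cultures. Its arrays overlapped, and the change was 0.037 ± 0.31 (adjusted p = 0.968). Mdm2, the ligase that p53 induces against itself, changed by 0.043 ± 0.089, Ccng1 by 0.028 and the death factor Bax by 0.065. In the apoptosis list 1 of 22 rose (4.55%, near the 2.97% of all genes). This was Bik, a BH3-only killer protein, by 0.78 ± 0.12 (adjusted p = 0.00215), from 6.44, 6.09 and 6.20 to 7.04, 6.88 and 7.16. Bcl2l1 (0.14), Mcl1 (0.063), Bcl2l2 (−0.21) and Bak1 (0.16) were not called.

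Drivers of the passage from G1 into S rose in part, with 5 of 19 higher and 0 lower. Ccne2, a cyclin of S-phase entry, read 5.92, 6.15 and 5.94 in control and 7.44, 7.46 and 7.01 in UVB cultures. UVB C was the lowest UVB culture and still lay above every control. The rise was 1.30 ± 0.13 (adjusted p = 1.39e-04), and its relative Ccne1 rose by 0.63 ± 0.16. E2f1, an activator of S-phase genes, rose by 0.67, E2f8, a late repressor of the same genes, by 1.27 ± 0.11, and Mybl2, which carries the programme on to mitosis, by 1.12. Ccnd1 (0.14), Cdk4 (−0.037), Cdk6 (0.074) and E2f3 (0.10) were not called. Ccne1 was no longer called without control A or C or UVB B or C (adjusted p up to 0.153).

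Genes of mitosis rose unevenly. The kinetochore, which ties chromosomes to the spindle, had 10 of 16 members higher and 0 lower (62.5%), with a median of 0.76. Spc24 read 9.76, 9.40 and 9.70 in control and 10.81, 10.81 and 10.95 in UVB cultures, and all UVB arrays lay above all controls. The outer kinetochore complex that grips microtubules rose in all 4 subunits: Ndc80 by 0.61, Nuf2 by 0.87, Spc24 by 1.24 and Spc25 by 0.86, with 1.24 ± 0.10 for Spc24 (adjusted p = 5.64e-05). A second probe of Nuf2 changed by 0.71 ± 0.11. Mis18a, which primes centromeres for new CENP-A, rose by 1.47 ± 0.15, and the centromere proteins Cenpk, Cenpt and Cenpe by 1.31, 1.01 and 0.66. Of the spindle checkpoint, the kinase Ttk rose by 0.86 and Mad2l1, detected in 1 control, by 0.91. Kntc1, which recruits checkpoint proteins to kinetochores and is on no list, rose by 1.33 ± 0.16, and the mitotic kinase Pbk by 1.33 ± 0.12. Cenpf (0.12), Cenpl (0.31), Cenpn (0.30) and Bub1 (0.57) were not called. Cenpe was no longer called without control B or C or UVB A, B or C (adjusted p up to 0.133).

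Of 15 mitotic cyclins, kinases and anaphase factors, 5 rose and 0 fell, and the risers were Cdk1 by 0.99, Ccna2 by 0.79, Espl1 by 0.80, Fbxo5 by 1.03 and Foxm1 by 0.71. Cdk1, the mitotic kinase, read 10.05, 9.66 and 10.08 in control and 10.87, 10.93 and 10.97 in UVB cultures, without overlap. Several genes that peak late in mitosis were not called, with changes of 0.063 ± 0.28 for the kinase Plk1, 0.18 ± 0.13 for the anaphase activator Cdc20, and 0.23 for the cyclin Ccnb2. The probes of the kinase Aurkb disagreed: the brighter one, used in the fit, changed by 0.042 ± 0.16 and was not called, and a second one changed by 0.92 ± 0.14, so its direction is uncertain. Mki67, the proliferation marker Ki-67, read 7.73, 7.82 and 7.80 in control and 8.27, 8.22 and 8.18 in UVB cultures, a change of 0.44 ± 0.13 (adjusted p = 0.0735). Espl1 was no longer called without control B or C or UVB A, B or C (adjusted p up to 0.0681).

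In the spindle and cytokinesis list 8 of 20 rose and 0 fell, but each of these changes was under 0.75: Kif11 by 0.61, Kif20b by 0.62, Kif22 by 0.48, Kif4a by 0.51 and Kifc1 by 0.74 among the motors, Cdca8 by 0.47 and Incenp by 0.38 in the complex that corrects attachments, and Ect2, which starts the cleavage furrow, by 0.43. The count was 2 without control B, 3 without UVB A or UVB B, 5 without control A or control C, and 3 with median scaling. Without control C, 4 of the 8 were called and Nusap1 was called in addition. Kif15 (0.73), Kif20a (0.32), Kif23 (0.45) and Kif2c (0.46) were not called. Among cohesin and condensin genes, 5 of 13 rose and 0 fell, and these were Smc2 by 0.77, Ncapd3 by 0.70, Ncapg by 0.80 and Ncapg2 by 0.58 of condensin and sororin, Cdca5, by 0.60. The cohesin ring genes Smc1a and Smc3 changed by 0.064 and 0.029, Smc4 by 0.22 and Ncapd2 by 0.35, none called. That count was 2 without control B and 3 without control A or any 1 UVB array. Kif11 was no longer called without control A or B or UVB A or B (adjusted p up to 0.0962), Kif20b without control C or UVB A (adjusted p up to 0.0548) and Kif22 without control B or C or UVB A, B or C (adjusted p up to 0.144). Kifc1 was no longer called without control B or C or UVB B (adjusted p up to 0.0639), Cdca8 without control A or B or UVB B or C (adjusted p up to 0.0939) and Incenp without control B or C or UVB A, B or C (adjusted p up to 0.112). Ect2 was no longer called without control A or B or UVB A (adjusted p up to 0.0765), Ncapd3 without any 1 of the 6 arrays (adjusted p up to 0.15) and Ncapg2 without control A or B or UVB A or B (adjusted p up to 0.0777). Cdca5 was no longer called without control B or UVB C (adjusted p up to 0.0689).

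**Figure D4:**
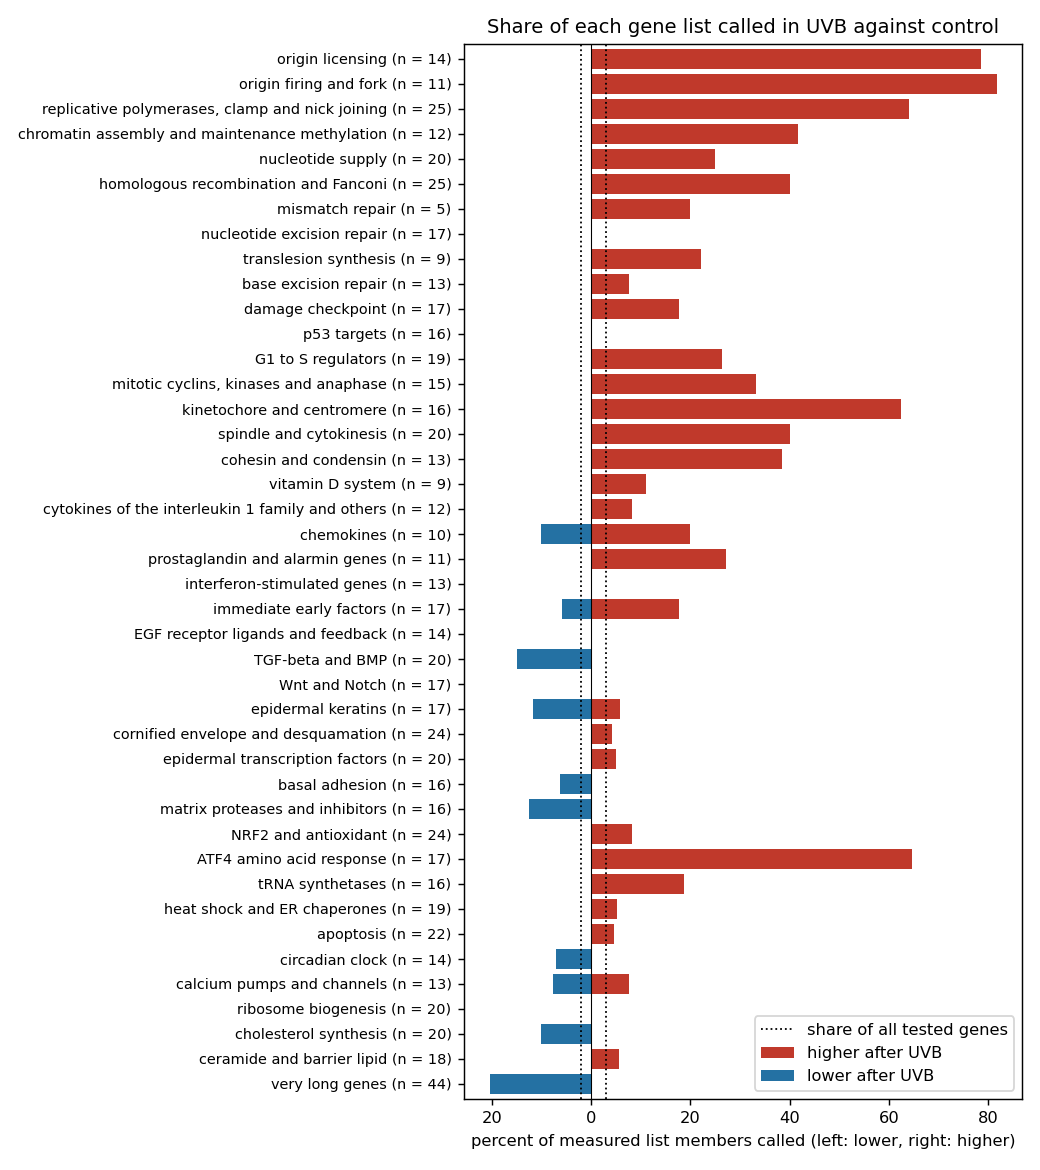
Percent of the measured members of each gene list with at least 5 measured members, marker lists left out (rows, with the number measured), that were called higher (red, to the right) or lower (blue, to the left) after UVB; the dotted lines mark the 2.97% and 1.98% of all tested genes. Replication, kinetochore and ATF4 lists reach beyond 60% higher. Nucleotide excision repair, p53 targets, interferon-stimulated genes, EGF receptor signalling, Wnt and Notch and ribosome biogenesis have no bar. Very long genes reach 20.5% lower, of which 5 members were listed with their falls known. All lists were chosen with earlier results of these data known.

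A second group outside the cell cycle was the amino acid response, in which ATF4 induces enzymes and transporters that make or import amino acids. Of 17 measured members 11 rose and 0 fell (64.7%), with a median of 0.56. Slc1a5, a glutamine transporter, read 9.36, 9.23 and 9.26 in control and 10.06, 10.23 and 10.53 in UVB cultures. Chac1, which degrades glutathione, read 6.56, 7.31 and 7.23 in control and 8.06, 7.89 and 7.95 in UVB cultures. Both were higher in every UVB culture, and for Chac1 control A lay below the other controls. Their changes were 0.99 ± 0.14 (adjusted p = 0.00114) and 0.93 ± 0.18 (adjusted p = 0.00937). Asparagine synthetase Asns rose by 0.79, the serine pathway enzymes Psph, Phgdh and Shmt2 by 0.78, 0.49 and 0.61, and cystathionine gamma-lyase Cth by 0.68. The transporters Slc7a5 and Slc7a1 rose by 0.77 and 0.43, the lipoprotein receptor Vldlr by 1.20 and the pseudokinase Trib3 by 0.56. Atf4 itself changed by 0.11 ± 0.12, the factor Ddit3 (CHOP) by −0.084 and Ddit4 by −0.079, none called. The count was 6 without control B or UVB C, 7 without control A, UVB A or UVB B, and 7 with median scaling. Trib3 was no longer called without any 1 of the 6 arrays (adjusted p up to 0.13), Slc7a5 without control B (adjusted p = 0.0608) and Slc7a1 without any 1 of the 6 arrays (adjusted p up to 0.137). Phgdh was no longer called without control A or B or UVB A, B or C (adjusted p up to 0.109), Shmt2 without control A or B or UVB A, B or C (adjusted p up to 0.152) and Cth without UVB C (adjusted p = 0.051).

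Of 16 aminoacyl-tRNA synthetases, which charge tRNAs and include ATF4 targets, 3 rose and 0 fell: Iars1 by 0.35, Lars1 by 0.34 and Wars1 by 0.53. Aars1 (0.15), Cars1 (0.36) and Eprs1 (0.33) were not called. In the heat shock and endoplasmic reticulum chaperone list 1 of 19 rose (5.26%, against 2.97% of all genes), Hspa2 by 0.68 (adjusted p = 0.0435). The chaperone Hspa5, a mark of protein folding stress, changed by 0.31 ± 0.091 (adjusted p = 0.0814). Of 24 antioxidant and NRF2 genes 2 rose (8.33%), the glutathione synthesis enzyme Gclc by 0.50 ± 0.077 and metallothionein Mt1 by 0.89 ± 0.17, while Nqo1 (−0.0094), Hmox1 (0.82), Gclm (−0.13) and Txnrd1 (0.26) were not called. Of 20 ribosome biogenesis genes 0 were called, with a median of 0.039. Iars1 was no longer called without control A, B or C or UVB A or B (adjusted p up to 0.161), Lars1 without control B or C or UVB A, B or C (adjusted p up to 0.14) and Wars1 without control B or UVB B (adjusted p up to 0.06). Hspa2 was no longer called without control A or B or UVB A, B or C (adjusted p up to 0.16). Mt1 was not called with the control and UVB arrays alone (adjusted p = 0.0556).

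Inflammatory genes were called singly. Of 10 chemokines 2 rose and 1 fell. Ccl2, the monocyte attractant, read 6.36, 6.76 and 6.30 in control and 7.73, 7.70 and 9.34 in UVB cultures. UVB C lay more than 1.5 log2 above UVB A and B, and all UVB cultures lay above all controls. The rise was 1.78 ± 0.35 (adjusted p = 0.0123), and with the authors' processed values it was 0.75 and not called (adjusted p = 0.0592). Ccl2 was also not called with the control and UVB arrays alone (adjusted p = 0.0552). Cxcl10, a T-cell attractant, read 4.99, 5.36 and 4.94 in control, where it was not detected, and 5.89, 6.18 and 6.59 in UVB cultures, where it was, and was at least 1.55-fold higher (adjusted p = 0.00221). Cxcl12, a chemokine usually made by stroma, fell by 0.65 ± 0.088 (adjusted p = 0.0011), from 10.39, 10.23 and 10.32 to 9.61, 9.62 and 9.75. Ccl5 (−0.26), Ccl7 (0.14), Ccl20 (0.38) and Ccl22 (−0.19) were not called.

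In the list of interleukin 1 family and other cytokines, 1 of 12 rose (8.33%, against 2.97% of all genes). Il1a, the alarm cytokine that keratinocytes store, read 8.82, 10.18 and 9.89 in control and 11.19, 11.10 and 10.70 in UVB cultures. Control A was more than 1 log2 below the other controls, and the groups did not overlap. The rise was 1.36 ± 0.29 (adjusted p = 0.0199). With the control and UVB arrays alone Il1a was not called (adjusted p = 0.0628). Il1b (−0.15), Il1rn (0.63), Il1r1 (−0.22) and Il1r2 (0.16) were not called. Of 11 prostaglandin and alarmin genes 3 rose (27.3%), and all 11 changes were positive. The risers were the prostaglandin E synthase Ptges by 0.59, the defensin Defb1 by 0.71 and the protease inhibitor Slpi by 0.92 ± 0.22. Ptgs2, the inducible cyclooxygenase, changed by 0.71 ± 0.19 (adjusted p = 0.0564). Of 13 interferon-stimulated genes 0 were called, among them Ifit1 (−0.10), Mx1 (0.13) and Irf7 (0.16). Serpina9, a serpin on no list, rose by 1.67 ± 0.31 (adjusted p = 0.00795), from 6.21, 7.31 and 7.48 to 8.53, 8.84 and 8.64. Il1a was no longer called without UVB A or B (adjusted p up to 0.0747), Ptges without control A or B or UVB B or C (adjusted p up to 0.102) and Defb1 without control A or C or UVB A, B or C (adjusted p up to 0.121). Slpi was no longer called without control A or B or UVB A, B or C (adjusted p up to 0.124).

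Of 17 immediate early genes, which answer growth factors and stress within minutes, 3 were higher and 1 lower at 24 h. Fos read 7.10, 6.75 and 7.15 in control and 8.01, 7.80 and 8.91 in UVB cultures, with UVB C the highest, and rose by 1.24 ± 0.23 (adjusted p = 0.00895). Ier3 rose by 0.76 and Myc by 0.36, while Dusp1, a phosphatase that switches off stress kinases, fell by 0.38. Jun (0.23), Junb (0.39), Jund (−0.13) and Atf3 (0.076) were not called. Of 14 genes of EGF receptor signalling 0 were called, with Egfr (−0.35), Areg (0.27), Ereg (0.28) and Hbegf (−0.087). Ier3 was no longer called without control B (adjusted p = 0.0683), Myc without control B or C or UVB A, B or C (adjusted p up to 0.139) and Dusp1 without control A, B or C or UVB A or C (adjusted p up to 0.0983).

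Among structural genes of the epidermis, keratins were called in both directions. Of 17 keratins 1 rose (5.88%, against 2.97% of all genes) and 2 fell (11.8%, against 1.98%). Krt16, a keratin of wounded and fast-dividing epidermis, read 11.26, 11.97 and 12.19 in control and 12.81, 13.05 and 13.40 in UVB cultures and rose by 1.28 ± 0.28 (adjusted p = 0.0229), with control A the lowest array. Krt15, a keratin of resting basal cells, read 14.11, 14.43 and 13.99 in control and 13.55, 13.56 and 13.22 in UVB cultures and fell by 0.74 ± 0.14 (adjusted p = 0.00926). Every UVB culture lay below every control for Krt15. Krt2, of the upper layers, read 7.03, 7.75 and 7.36 in control and 5.89, 6.23 and 5.24 in UVB cultures, was detected in 2 of 3 UVB cultures, and fell by 1.59 ± 0.32 (adjusted p = 0.0141), a fall of 0.45 without a call in the authors' processed values (adjusted p = 0.221). The main keratins of the basal and suprabasal layers, Krt14 (−0.058), Krt1 (−0.040) and Krt10 (0.043), were not called. Krt14 and Krt10 read near the top of the scale, so their missing calls do not show that they were unchanged. Krt2 was no longer called without control B or UVB C (adjusted p up to 0.0693) and Krt16 without control A or B or UVB B or C (adjusted p up to 0.098).

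Of 24 genes of the cornified envelope and its shedding, 1 rose (4.17%, near the 2.97% of all genes), the protease Klk6 by 0.59 (adjusted p = 0.0269). The precursors Ivl (−0.077), Flg (0.54), Evpl (−0.18) and Ppl (0.20) were not called. Tp63, the master transcription factor of the basal layer, changed by −0.17 ± 0.10 and was not called. Of 18 genes of ceramide and barrier lipids 1 rose (5.56%, against 2.97% of all genes), the dihydroceramide hydroxylase Degs2 by 0.75. Of 20 cholesterol synthesis genes 2 fell (10.0%, against 1.98% of all genes), Hmgcs1 by 0.40 and Ebp by 0.34. Uncalled members of these lists included Cers2 (−0.11), Cers4 (0.37) and Pmvk (−0.27). Klk6 was no longer called without control A or UVB A, B or C (adjusted p up to 0.0858), Degs2 without control A or B or UVB A, B or C (adjusted p up to 0.142) and Hmgcs1 without control A, B or C or UVB A or C (adjusted p up to 0.144). Ebp was no longer called without UVB B (adjusted p = 0.0563).

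Growth factor and adhesion genes accounted for part of the falls. Of 20 TGF-beta and BMP genes 3 fell and 0 rose (15%, against 1.98% of all genes). Tgfb2, a growth inhibitor of epithelia, read 8.66, 8.72 and 8.58 in control and 7.98, 7.60 and 7.64 in UVB cultures and fell by 0.91 ± 0.11 (adjusted p = 5.22e-04). The other two are secreted BMP antagonists. Nbl1 read 8.38, 8.44 and 8.26 in control and 7.49, 7.19 and 6.76 in UVB cultures and fell by 1.21 ± 0.15. Noggin, Nog, was detected in no UVB culture and was at least 1.55-fold lower (adjusted p = 0.0103). For Tgfb2 and Nbl1 the groups did not overlap. Tgfb1 (−0.19), Tgfbr1 (0.035), Tgfbr2 (−0.16) and Smad2 (−0.17) were not called, and Ccn2, a TGF-beta target, changed by −0.92 ± 0.31 (adjusted p = 0.132). Nog was no longer called without control B or UVB C (adjusted p up to 0.0539).

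Of 17 Wnt and Notch genes 0 were called and Wnt4 (−0.32), Axin2 (−0.20), Lef1 (−0.22) and Notch1 (−0.19) were among those not called, but 3 other genes of Wnt signalling, grouped here after their values were seen, were among the 25 largest falls. Lgr4, the R-spondin receptor that strengthens Wnt signals, read 8.44, 8.55 and 8.37 in control and 7.56, 7.61 and 7.18 in UVB cultures and fell by 1.0 ± 0.13 (adjusted p = 6.89e-04). The ligand Wnt16 was detected in no UVB culture and was at least 1.36-fold lower (adjusted p = 0.00272). Dact1, which modulates Dishevelled, was detected in 1 UVB culture and fell by 0.94 ± 0.22 (adjusted p = 0.035). Of 16 basal adhesion genes 1 fell (6.25%, against 1.98% of all genes), the collagen receptor subunit Itga2 by 0.60, and Itga3 (0.35), Itga6 (−0.15), Itgb1 (−0.24) and Itgb4 (0.059) were not called. Of 16 matrix proteases and inhibitors 2 fell (12.5%): the gelatinase Mmp9 by 0.69, and Adamts1, detected in no UVB culture, by at least 1.28-fold. Mmp2 (0.034), Mmp3 (0.52), Mmp10 (−1.03) and Mmp12 (−0.77) were not called. Dact1 was no longer called without control A, B or C or UVB B or C (adjusted p up to 0.135), Itga2 without control C or UVB C (adjusted p up to 0.0626) and Mmp9 without control A or B or UVB A, B or C (adjusted p up to 0.133). Adamts1 was no longer called without any 1 of the 6 arrays (adjusted p up to 0.148).

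Several of the largest falls were genes known for their great length, a list written from general knowledge with no length measured here. Of 44 such genes 9 fell and 0 rose (20.5%), with a median of −0.18, but 5 of them (Prkg1, Cdk14, Bbs9, Bcas3 and Slit3) were put on the list with their falls known. Without these 5, 4 of 39 fell (10.3%) and the median was −0.13. Cdk14, a kinase that acts in Wnt signalling, read 7.39, 6.97 and 7.34 in control and 5.35, 5.31 and 5.47 in UVB cultures. It was detected in no UVB culture and on this scale was at least 3.10-fold lower (adjusted p = 6.31e-05). Bbs9, of the ciliary BBSome, was likewise at least 2.15-fold lower (adjusted p = 2.14e-04). With the authors' processed values the log2 changes of Cdk14 and Bbs9 were −0.47 and −0.38, short of these bounds. Prkg1, the cGMP-dependent kinase, was detected in 2 UVB cultures and fell by 1.56 ± 0.18, while its other probe changed by −0.23 ± 0.20. The guidance factor Slit3 fell by 1.10 and Bcas3, detected in 2 UVB cultures, by 1.07. The other members that fell were Exoc4 by 0.96, Cdh13 by 0.73 and Prkce by 0.51, and Lpp, detected in 1 control and no UVB culture, for which no fold is given. Exoc4, of the exocyst, read 6.70, 6.83 and 6.87 in control and 5.94, 5.83 and 5.74 in UVB cultures, without overlap. Lrp1b (0.31), Dmd (−0.28), Magi3 (0.14) and Fto (−0.10) were not called. Slit3 was no longer called without UVB C (adjusted p = 0.0513), Lpp without any 1 of the 6 arrays (adjusted p up to 0.148) and Prkce without control A or B or UVB A, B or C (adjusted p up to 0.164).

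The remaining large changes fell on no common list. Aadac, the arylacetamide deacetylase of lipid and drug metabolism, read 6.28, 7.44 and 6.65 in control and 4.86, 4.77 and 4.93 in UVB cultures, where it was not detected. On this scale it was at least 2.29-fold lower (adjusted p = 0.00123), while its log2 change with the authors' processed values was −0.49. The carboxylesterase Ces1d, detected in 2 UVB cultures, fell by 1.54 ± 0.28, and the glycogen branching enzyme Gbe1 fell by 1.11 ± 0.15. Pcp4, a modulator of calmodulin, read 10.48, 10.64 and 10.58 in control and 9.07, 8.86 and 9.01 in UVB cultures and fell by 1.59 ± 0.12 (adjusted p = 4.20e-05). The calcium pump Atp2a3 moved the other way, from 7.19, 7.19 and 7.10 to 8.47, 8.33 and 9.01, a rise of 1.44 ± 0.17 (adjusted p = 4.74e-04). These were the 2 calls among 13 calcium genes (7.69% higher and 7.69% lower, against 2.97% and 1.98% of all genes). Atp2a2, the main epidermal pump of the endoplasmic reticulum, changed by −0.044. Mylip, which degrades the LDL receptor, fell by 1.01 ± 0.21, and Pik3ip1, an inhibitor of PI3 kinase, by 0.94 ± 0.10. Other falls were Sectm1a by 1.18, Scfd2 by 0.99, Gtdc1 by 0.97 and Crebrf by 0.97. Of 14 clock genes 1 fell (7.14%, against 1.98% of all genes), the repressor Bhlhe41 by 0.53 (adjusted p = 0.0238), and Per1 changed by −0.53 (adjusted p = 0.0648). Probes known only by the array's provisional names completed the 50 largest changes, with rises of 2.09 ± 0.43 for LOC310586 and 1.39 ± 0.13 for LOC501211, and changes of −1.38, −1.38 and −1.33 for RGD1311993, RGD1563485 and RGD1562717. LOC310586 was detected in 2 controls and RGD1311993 in 2 UVB cultures. LOC310586 was no longer called without UVB A or B (adjusted p up to 0.0667), Mylip without control A or B or UVB C (adjusted p up to 0.0761) and Bhlhe41 without control A, B or C or UVB A or B (adjusted p up to 0.0934).

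The same exposure in the 6 betaine-grown cultures, which share no array with the 6 above, gave a second set of changes. There 423 genes were higher (3.87%) and 249 lower (2.28%). Of the 325 genes that rose without betaine, 316 had the same sign and 240 were also called with it, which is 73.8% of the first list and 56.7% of the second. Of the 217 that fell, 210 had the same sign and 101 were also called, or 46.5% and 40.6%. None was called in opposite directions. Across all tested genes Pearson's r between both changes was 0.57, and it was 0.93 across the 542 called genes. Genes are not independent replicates, and all arrays shared 1 normalization, gene filter and estimate of the spread. The 542 genes were selected for their change without betaine, which by itself can raise r above that of all genes. Cyp24a1, with 7.26 and 7.77, lies far out on both axes. The share of all tested genes with the same sign was not counted. In the licensing list 11 of 14 members were higher with betaine, against 11 without, and the median change was 1.14 against 0.81. In the ATF4 list the count was 12 against 11 of 17. Nucleotide excision repair had 0 higher and 1 lower of 17 with betaine, and p53 targets 0 and 1 of 16. Other lists gave less similar counts. With betaine 19 of 20 spindle and cytokinesis genes were higher, against 8 without, and their median change was 0.91 against 0.46. Of 15 mitotic cyclins, kinases and anaphase factors 11 were higher, against 5, with medians of 0.76 and 0.33. The counts were 13 against 10 of 16 kinetochore genes, 9 against 3 of 16 aminoacyl-tRNA synthetases and 8 against 5 of 12 genes of chromatin assembly and maintenance methylation. For prostaglandin and alarmin genes the order was the other way, with 0 of 11 called with betaine and 3 without. These differences between counts were not tested as such.

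**Figure D5:**
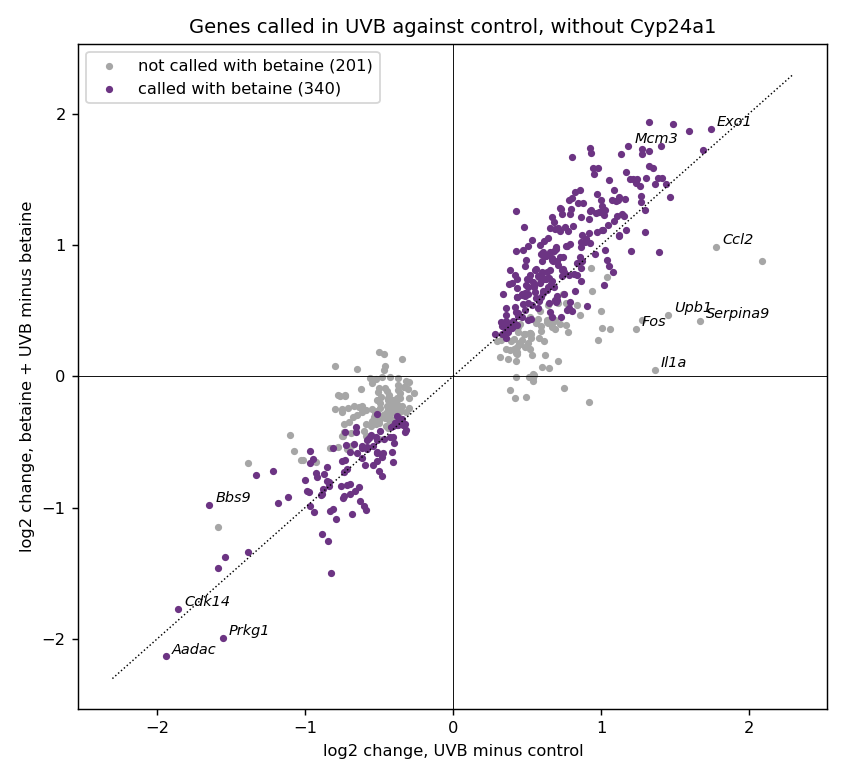
Change after UVB without betaine (horizontal axis) and with betaine (vertical axis), both log2, for the called genes other than Cyp24a1; the dotted line marks equal change. Purple points were also called with betaine and gray points were not, and Il1a, Fos, Upb1 and Serpina9 lie far below the line.

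The difference between both UVB effects was tested directly by the interaction term. It was called for 0 genes in limma, with a smallest adjusted p of 0.429, although 880 genes, 110 of them among the 542 calls, had an unadjusted p under 0.05. With array weights 10 genes were called, 7 with a more positive and 3 with a more negative change under betaine. A p that misses the threshold does not show that both responses were alike, and some of the genes described above had quite different values side by side. Il1a averaged 9.63 ± 0.71 (SD, n = 3) in control, 10.99 ± 0.26 in UVB, 10.21 ± 0.20 in betaine and 10.26 ± 0.32 in betaine + UVB cultures. Its changes were thus 1.36 without and 0.050 with betaine (interaction adjusted p = 0.574). For Upb1 they were 1.45 and 0.47 (interaction adjusted p = 0.574), for Serpina9 1.67 and 0.42 (0.574) and for Fos 1.24 and 0.36 (0.587). Mcm3 differed the other way, with 1.19 and 1.76 (interaction adjusted p = 0.574). Its level was 9.99 ± 0.093 in UVB and 9.92 ± 0.15 in betaine + UVB cultures, and 8.81 ± 0.17 in control and 8.17 ± 0.13 in betaine cultures, so the irradiated groups lay closer together than the groups without UVB.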

How the data were processed

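The authors deposited, per the file headers, a signal intensity with its detection p-value for 22523 probes on 12 arrays, not background-subtracted. The authors also deposited processed values, read as log2 from their range, made by a method not given in the sources used here. Per the submitters' processing notes, R 2.11 and limma were used. The intensities were background-corrected from the detection p-values and quantile-normalized with neqc of limma 3.58.1 (R 4.3.3, offset 16). Probes were kept if they had a gene name and were detected (p-value under 0.05) on 3 arrays or more (11255 probes), and each of 10937 genes was tested with its brightest probe. Symbols were updated with a RefSeq table (GRCr8, names only), which matched 16911 probes, 4978 of them through a synonym. Of the called genes 103 are named through a synonym and 54 by the array's own name. The number of arrays limits the precision: the median standard error was 0.12 log2.

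All 12 arrays entered 1 limma fit with a mean per group and no pairing, and p-values were adjusted by Benjamini-Hochberg within each comparison. A gene undetected in every culture of a group has a bound in place of a fold, set against the lowest normalized signal among detected probes on each array or the probe's own signal, whichever was higher. The bound includes no sampling error and holds on this normalized scale only. With the authors' processed values, each gene given a bound above changed by less than that bound. The text names the 25 largest rises and falls, every called member of a list and up to 4 uncalled members of each, except some genes not reported here. Other genes were named after their values were seen: Krt14, Krt10, Cd68, S100g, Polh, Mki67, Plk1, Aurkb, Cdc20, Tp63, Ccn2, Ptgs2, Per1 and the other uncalled genes beyond 4 in a list. Members and lists were chosen with earlier results of these data known. The same letter in both groups did not pair cultures (correlations of −0.14, 0.18 and −0.12 between their deviations). The fit was tested on simulated data. Alternatives changed the background correction, scaling, filter, probe choice, weights, arrays in the fit and replicates.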

Additional observations from a re-analysis of the deposited data

How the results depend on the processing

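The UVB count was 605 without background correction, 716 with median scaling, 621 with the authors' processed values, 459 without a detection filter, 600 with a stricter one, 526 with the mean of probes, 365 with the control and UVB arrays alone, and 830 with array weights. With 1 culture left out it ran from 315 to 709, and was 360, 315 and 390 without control A, B and C and 363, 335 and 315 without UVB A, B and C. Leaving out betaine-grown cultures was added after seeing the data. With the letter as a replicate block 440 genes were called. The betaine + UVB against betaine count was 672, 2212 with array weights, and from 366 to 919 with 1 culture left out, with 426 without betaine B and without betaine + UVB A, 433 without betaine + UVB B and 366 without betaine + UVB C. The interaction gave 10 genes with array weights and 0 in every other setting, from 0 to 0 with 1 culture left out. Of 173 called genes that the naming rule covers, 108 kept their call in every setting that tested them, 61 lost it with 1 control or UVB array left out, and 0 reversed. The stricter detection filter tested 168 of the 173. With the control and UVB arrays alone 39 of the 173 were not called, and with median scaling 27. The losses given gene by gene above are mostly those with 1 array left out. With the authors' processed values, 109 had a change more than 1.5 times smaller. A gene not above background in every culture of a group has only a bound there. The cause of these differences was not tested.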
